A study of Mus musculus with 9 samples.

Results

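The genes described here encode subunits of Polycomb, trithorax and SWI/SNF chromatin complexes. They were chosen by name, and the rule that picks them uses no measured value, though the list was drawn up with earlier results of these data known. They are the rows of the raw count table whose Ensembl identifier maps to 51 listed symbols. All 51 were found among the 48526 genes of the table, and all 51 passed the filter on low counts that left 18858 genes to be tested. By role they comprise 24 Polycomb genes, 10 genes of trithorax (COMPASS) methyltransferase complexes and H3K27 demethylases, and 17 SWI/SNF genes.

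The samples were adult neural stem cells (NSCs) of C57BL/6 mice, isolated from the subependymal zone (SEZ) and grown in culture, with no genetic change named in the labels. Differentiation was started by placing the cells on an adhesive substrate and withdrawing EGF, and RNA was taken at the start (0 h) and after 1 h or 6 h, with 3 libraries per time point and 9 in all. By the methods of the study, cells collected within the first hours had first been plated in complete medium, and FGF was kept after EGF was withdrawn. The question these libraries address is how the transcriptome changes in the first hours of differentiation. The mouse or culture behind each replicate number is not named, so the spread that the p-values measure may be technical. In the main fit, which has the replicate number as a block, this is only the spread left within replicate numbers. Differences between the replicate numbers are taken out of it.

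Total counts lay between 65871454 and 105592597 per library. The NSC markers Nes, Sox2, Vim and Slc1a3 were present in all 9 libraries, and the 9 NSC markers listed summed to between 6713 and 9659 CPM (the usual CPM unit, counts of a gene relative to the TMM-scaled library total). The 5 microglial markers were each below 1 CPM on average and summed to at most 0.526 CPM in any library. The 4 endothelial, 3 pericyte and 4 oligodendrocyte markers summed to at most 4.24, 7.27 and 7.51 CPM, and the 3 ependymal markers, mainly Foxj1, to between 37.2 and 91.6 CPM. At 6 h, 6 of 8 proliferation markers were lower than at 0 h (summed 2173 to 3007 against 2694 to 3459 CPM) and 4 of 6 neuronal markers higher (58.5 to 121.5 against 19.7 to 38.7 CPM), where Syt1 held most of the sum and Dcx and Stmn2 did not pass. Of the 9 NSC markers 3 were higher and 2 lower, both tested ependymal markers were lower, and over the microglial, endothelial, pericyte and oligodendrocyte lists 2 of 8 tested genes were higher and 3 lower. With no replicate block edgeR called none of the 33 tested markers at 6 h against 0 h. In that fit 8 of them had an unadjusted p under 0.05, beside 3373 of the 18858 tested genes. The part of these markers in the results below was not tested. In these bulk samples fewer cells of a type and less RNA per cell cannot be told apart.

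As background, Polycomb repressive complex 2 (PRC2) methylates lysine 27 of histone H3 through EZH1 or EZH2, and PRC1 ubiquitinates histone H2A through RING1 or RNF2, and both keep developmental genes silent. Trithorax-group KMT2 enzymes methylate lysine 4 of H3 and counter that silencing, and the KDM6 enzymes remove the Polycomb mark. SWI/SNF (BAF) complexes move nucleosomes with the ATPases BRG1 (Smarca4) or BRM (Smarca2). In the developing nervous system, progenitors carry ACTL6A and PHF10 or DPF2 in their BAF complexes, and postmitotic neurons carry ACTL6B, DPF1 and DPF3 in their place.

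At 6 h against 0 h, 9 of the 51 genes were higher and 15 were lower, at an adjusted p under 0.05 (quasi-likelihood test of edgeR with the replicate number as a block, Benjamini-Hochberg over 18858 genes). Over all tested genes 17.4% were higher and 17.5% lower, or 34.9% in either direction. Of the 51 genes, 50 had a mean of at least 5 CPM, a level at which 46.9% of genes were called, so the 24 of 51 called here is a share near the background. The changes were small, with absolute log2 fold changes between 0.151 and 0.461 among the 24 called genes, and the median over the 51 genes was -0.00, beside a median of -0.00 over all tested genes. All 24 moved the same way in 3 of 3 replicate numbers. The test with the block favours such genes, so this is no separate support for the calls. For 15 of the 24 the 6 h libraries did not overlap the 0 h libraries. Over all tested genes, the 3 libraries at 6 h were all above those at 0 h for 12.8% and all below for 12.1%, and among the 51 genes this held for 10 and 10. Apart from the 46.9%, no share of genes given here or below was matched to the level of the 51 genes.

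The calls at 6 h against 0 h depended on the replicate block. With time point as the only factor, edgeR called none of the 51 genes, while the background was 1.46% higher and 0.955% lower. The adjusted p of the 24 genes then lay between 0.0838 and 0.89. In that fit 12 of the 51 had an unadjusted p under 0.05, beside 3373 of the 18858 tested genes. DESeq2 with no block called 3 genes higher (Ezh1, Jarid2 and Dpf2) and 2 lower (Smarcc1 and Phf10), against 2.6% and 2.18% of all genes with a count. With the block it called 9 and 14, against 9.34% and 10.1%. Here and below, DESeq2 shares are over 31382 genes with at least 1 count, a wider set than the 18858 tested in edgeR. With the calls so dependent on the block, the directions given below are differences within replicate numbers. Of the 9 higher and 15 lower calls, 6 and 8 were kept in all 9 fits that leave out 1 library. In all 3 fits that leave out 1 replicate number, 6 and 5 were kept. A call said below to hold without any 1 library was therefore not always kept in those 3 fits.

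**Figure D1:**
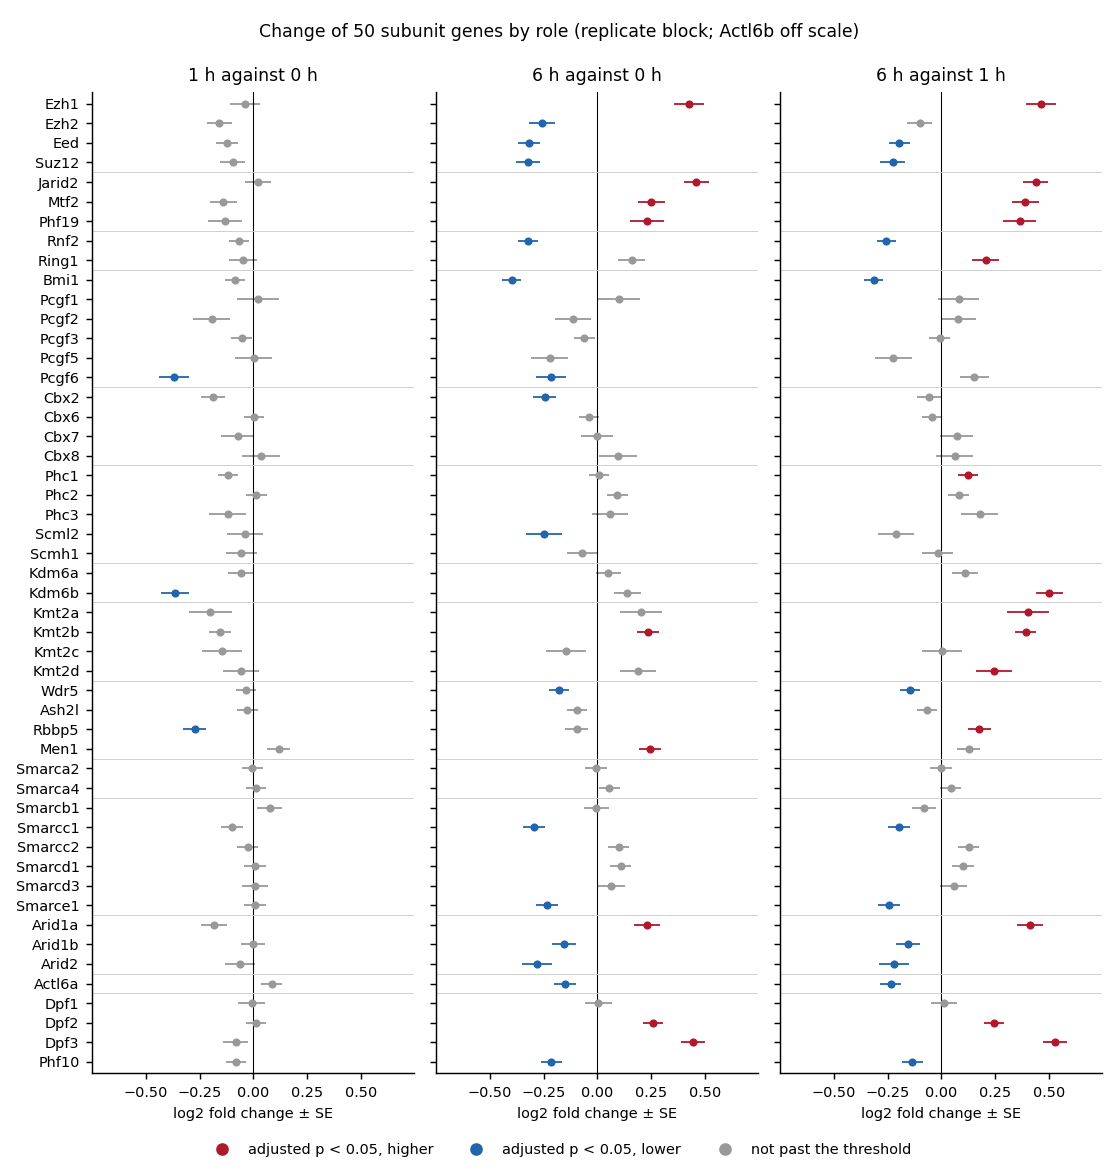
Log2 fold change (points) with its standard error (bars) of 50 genes in 3 comparisons, from the edgeR fit with the replicate block; horizontal lines separate roles, and Actl6b is left out for its wide error. Red points rose and blue points fell at an adjusted p under 0.05. At 6 h against 0 h the PRC2 accessory genes Jarid2, Mtf2 and Phf19 are all red while Ezh2, Eed and Suz12 are blue, and at 1 h against 0 h only Pcgf6, Kdm6b and Rbbp5 are coloured.

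Levels of different genes were compared per kilobase of the union of exons. Smarca4, the main ATPase, was the most abundant of the 51 genes with 62.8 ± 1.82 CPM per kb at 0 h (SD, n = 3), ahead of its partners Smarcc1 with 46.1 ± 2.13 and Smarcc2 with 41.8 ± 0.28 CPM per kb. The most abundant Polycomb gene was Bmi1, a PRC1 subunit needed for NSC self-renewal, with 39.6 ± 3.73 CPM per kb at 0 h, and Phc2, a scaffold of canonical PRC1 (29.5 ± 2.002), Rnf2 (26.6 ± 6.59) and Suz12 (26.3 ± 3.47 CPM per kb) overlapped within their SDs at 0 h. Ezh2 had 23.3 ± 1.06 CPM per kb. The order of the Polycomb genes depended on the length used, since per kb of the longest transcript Ezh2 (55.8 ± 2.53) and Phc2 (52.7 ± 3.57) stood above Bmi1 (43.8 ± 4.11 CPM per kb), and Smarca4 (63.8 ± 1.84) and Smarcc1 (62.6 ± 2.902) then overlapped within their SDs. At the other end, Ezh1 had 1.23 ± 0.114, Cbx7 1.25 ± 0.173, Scml2 1.01 ± 0.31 and Pcgf5 0.85 ± 0.124 CPM per kb, and the first 3 of these did not differ beyond their SDs. Actl6b was near absence, with between 1 and 43 counts per library.

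**Figure D2:**
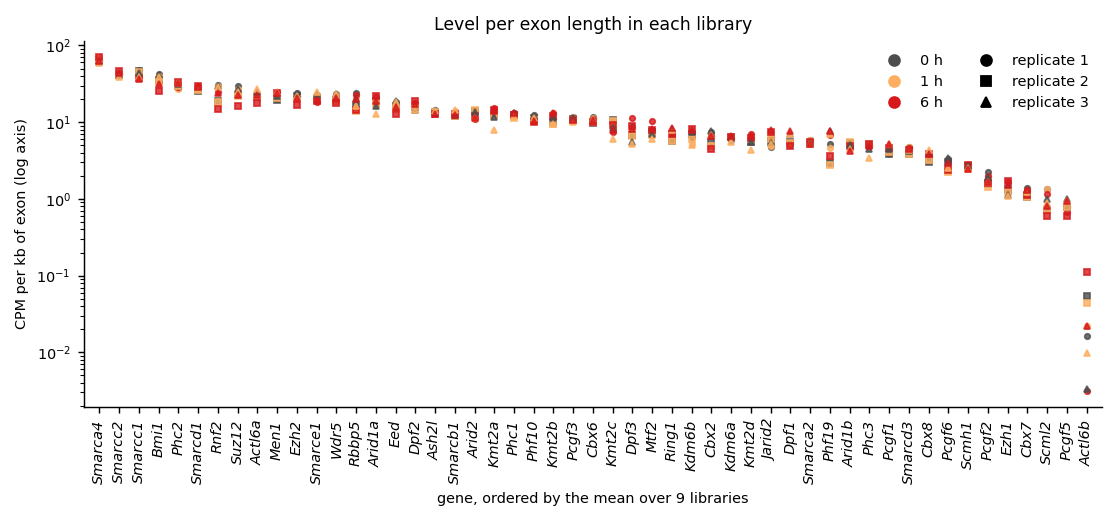
CPM per kb of exon (log axis) of the 51 genes in each of the 9 libraries, ordered by the mean; colours are time points and shapes are replicate numbers. Smarca4 lies at the top with a mean of 63.8 CPM per kb, and Actl6b at the bottom with 0.0316.

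Within the PRC2 core, the methyltransferase paralogues moved in opposite directions. Ezh1 (chr11:101191115-101226463, GRCm38) had 9.26, 9.93 and 8.25 CPM at 0 h, 9.39, 9.201 and 8.13 CPM at 1 h and 12.5, 12.9 and 11.4 CPM at 6 h (replicates 1, 2 and 3 in that order throughout). Its 3 libraries at 6 h lay above all 6 earlier ones. The log2 fold change at 6 h against 0 h was 0.43 ± 0.069 (SE, adjusted p = 0.000421, and 0.105 with no replicate block). Ezh2 (chr6:47530139-47595341), the paralogue that predominates in dividing cells, had 162.5, 148.4 and 155.7 CPM at 0 h, 140.1, 133.6 and 144.3 CPM at 1 h and 144.2, 111 and 136.6 CPM at 6 h. It was lower at 6 h than at 0 h with no overlap between the groups, with replicate 2 the lowest at each time point, and its 1 h libraries also lay below the 0 h libraries. The log2 fold change at 6 h against 0 h was -0.26 ± 0.059 (SE, adjusted p = 0.00426, and 0.234 with no replicate block), and at 1 h it was -0.16 ± 0.059 (SE, adjusted p = 0.177), which did not pass. The Ezh2 call was lost without the 0 h library of replicate 2 (adjusted p = 0.0565), and without the 6 h library of replicate 2 the value was -0.17 (adjusted p = 0.0433). Without all 3 libraries of replicate 2 the value was -0.17 and did not pass (adjusted p = 0.115).

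The promoters of these paralogues are shown because their transcripts moved in opposite directions. Each is the 300 bases from 250 before to 50 after the RefSeq start of GRCm38.p6, 5′ to 3′ on the strand of the gene, with capitals for matches on either strand to the E2F letters TTTCCCGC, TTTCGCGC, TTTGCCGC or TTTGGCGC and to the CCAAT box (CCAAT).
Ezh2 (chr6:47594981-47595280, minus strand): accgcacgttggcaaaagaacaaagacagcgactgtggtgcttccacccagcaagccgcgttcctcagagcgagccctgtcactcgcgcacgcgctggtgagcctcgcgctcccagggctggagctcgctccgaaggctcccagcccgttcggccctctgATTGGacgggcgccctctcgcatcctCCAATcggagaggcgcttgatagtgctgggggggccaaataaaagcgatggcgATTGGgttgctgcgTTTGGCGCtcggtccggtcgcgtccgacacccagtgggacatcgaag
Ezh1 (chr11:101226414-101226713, minus strand): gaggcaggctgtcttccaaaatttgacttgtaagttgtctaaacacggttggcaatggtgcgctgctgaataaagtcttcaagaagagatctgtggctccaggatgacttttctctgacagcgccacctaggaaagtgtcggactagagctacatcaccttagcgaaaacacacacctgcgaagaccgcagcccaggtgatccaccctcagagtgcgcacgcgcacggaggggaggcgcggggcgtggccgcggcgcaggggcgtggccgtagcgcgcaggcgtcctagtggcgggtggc
The Ezh2 window held 1 E2F match and 3 CCAAT boxes, and the Ezh1 window held neither. E2F letters occurred in 2.26% of the 32851 promoters of the table and in those of 5 of the 44 listed genes with a promoter there (Arid1a, Ezh2, Phf19, Smarcd1 and Suz12), of which 2 rose, 2 fell and 1 did not pass at 6 h against 0 h. CCAAT occurred in 37.4% of all promoters. The shares count single promoters, while a listed gene counts if any of its promoters matched, so the units are unlike. All promoters were also not matched to the listed genes by level, so no enrichment is read from these numbers. The windows held 31 (Ezh2) and 23 (Ezh1) CpG dinucleotides, against a median of 7 over all promoters. A match is a description of letters and not a measured site.

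Both non-catalytic core subunits fell. Eed, which reads the H3K27 methyl mark (chr7:89954654-89980983), had 69.8, 62.8 and 72.97 CPM at 0 h, 61.5, 57.3 and 70.2 CPM at 1 h and 57.03, 48.7 and 59.4 CPM at 6 h. The 6 h values lay below all 0 h values, with replicate 2 the lowest at each time point, and the log2 fold change was -0.32 ± 0.050 (SE, adjusted p = 0.000321, and 0.173 with no replicate block). Suz12, the scaffold of PRC2 (chr11:79993106-80034123), had 144.7, 111.3 and 134.6 CPM at 0 h, 134.6, 107.7 and 122.3 CPM at 1 h and 123.6, 81.1 and 110.2 CPM at 6 h. It was lower at 6 h in each of the 3 replicate numbers, replicate 2 was the lowest throughout and the groups overlapped, and the log2 fold change was -0.32 ± 0.058 (SE, adjusted p = 0.000833, and 0.389 with no replicate block). Both calls held without any 1 of the 9 libraries.

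The 3 PRC2 accessory genes rose. Jarid2, which recruits PRC2 and modulates its activity (chr13:44729474-44921643), had 46.7, 55.4 and 51.7 CPM at 0 h, 47.2, 59.3 and 49.8 CPM at 1 h and 62.5, 73.2 and 75.95 CPM at 6 h. The libraries at 6 h lay above all 6 earlier ones, and its log2 fold change of 0.46 ± 0.059 (SE, adjusted p = 6.58e-05, and 0.0838 with no replicate block) was the largest rise among the 24 called genes. Mtf2, a Polycomb-like protein that binds CpG islands, had a log2 fold change of 0.25 ± 0.062 (SE, adjusted p = 0.00689, and 0.333 with no replicate block). Its groups did not overlap, and its call was lost without the 0 h library of replicate 1 (adjusted p = 0.0692) or the 6 h library of replicate 1 (adjusted p = 0.0623). Phf19, another Polycomb-like protein, differed far more between replicate numbers than between times, with 26.1, 14.8 and 38.5 CPM at 0 h, 23.4, 13.7 and 35.2 CPM at 1 h and 34.5, 18.2 and 38.5 CPM at 6 h. Its log2 fold change was 0.23 ± 0.078 (SE, adjusted p = 0.035, and 0.89 with no replicate block), and the call was lost without replicate 1 at 0 h (0.164) or 6 h (0.249) and without replicate 2 at 0 h (0.124) or 6 h (0.108, adjusted p in each case). Its value was 0.14 without the 6 h library of replicate 1 and 0.35 without that of replicate 3.

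**Figure D3:**
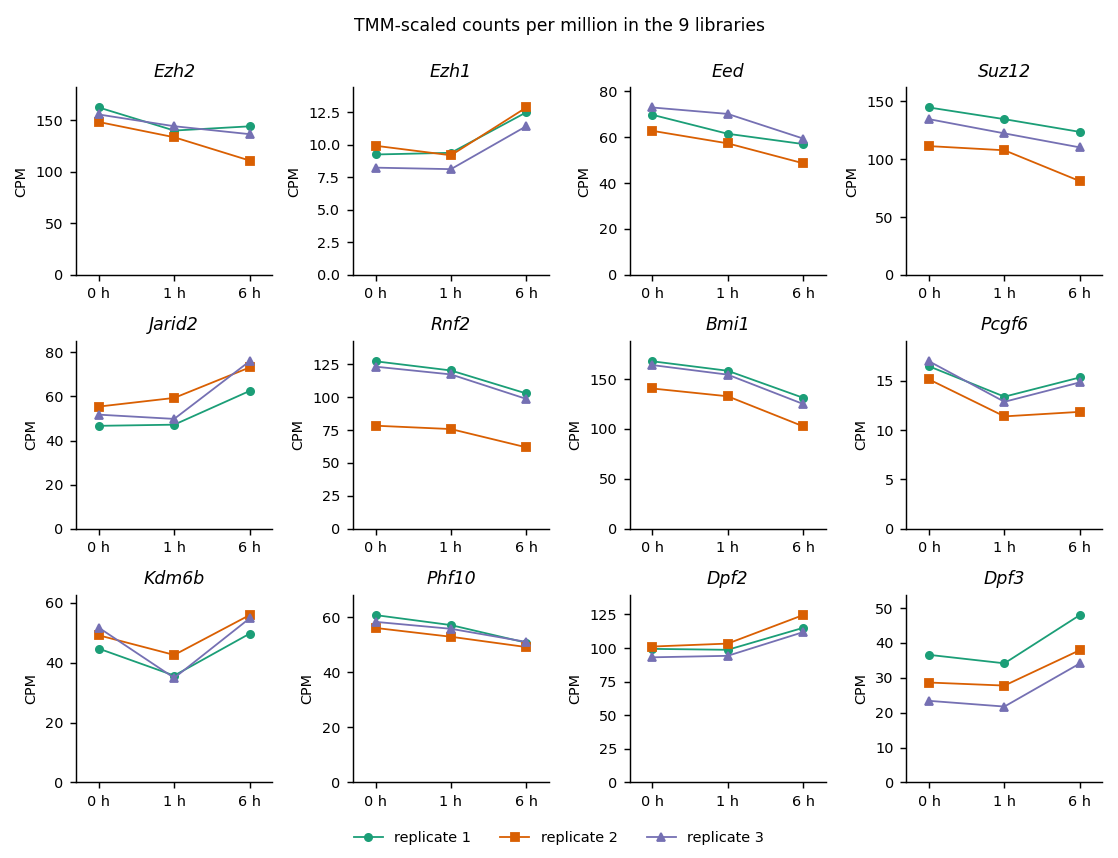
CPM of 12 genes in the 9 libraries; each line joins the libraries of 1 replicate number over 0 h, 1 h and 6 h, and axes start at 0. Ezh1, Jarid2, Dpf2 and Dpf3 climb between 1 h and 6 h, Eed, Suz12, Rnf2, Bmi1 and Phf10 descend, and Pcgf6 and Kdm6b are lowest at 1 h in each of the 3 replicate numbers.

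In PRC1, the E3 ligase Rnf2 and its partner Bmi1 fell. Rnf2 (chr1:151458004-151500955) had 127.4, 78.4 and 123.3 CPM at 0 h, 120.4, 75.8 and 117.4 CPM at 1 h and 102.9, 61.9 and 98.8 CPM at 6 h. Replicate 2 was far below the other replicates at every time point, so the groups overlapped, while each replicate number was lower at 6 h. The log2 fold change was -0.32 ± 0.045 (SE, adjusted p = 0.00013, and 0.622 with no replicate block). Ring1, the paralogous ligase, had a log2 fold change of 0.16 ± 0.064 (SE, adjusted p = 0.0686). Bmi1 (chr2:18677018-18686629) had 167.9, 140.6 and 164.1 CPM at 0 h, 158.4, 132.8 and 154.5 CPM at 1 h and 131.3, 102.7 and 125.1 CPM at 6 h. All 6 h values lay below all earlier values, and the log2 fold change of -0.40 ± 0.045 (SE, adjusted p = 2.72e-05, and 0.126 with no replicate block) was the largest fall among the 24 called genes. The calls of Rnf2 and Bmi1 held without any 1 library.

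The PCGF proteins define which PRC1 complex is formed, and of the 6 members 2 were lower at 6 h and none higher. Besides Bmi1 (Pcgf4) this was Pcgf6, of a variant PRC1, with 16.5, 15.1 and 16.98 CPM at 0 h, 13.4, 11.4 and 12.9 CPM at 1 h and 15.3, 11.8 and 14.8 CPM at 6 h. Each replicate number was lowest at 1 h, the 1 h values lay below all 0 h values, and the groups of 6 h and 0 h overlapped. The log2 fold change was -0.37 ± 0.069 (SE, adjusted p = 0.0103, and 1 with no replicate block) at 1 h and -0.22 ± 0.068 (SE, adjusted p = 0.0256, and 0.453 with no replicate block) at 6 h. The call at 1 h was lost without the 0 h library of replicate 2 (adjusted p = 0.116) or 3 (0.0781), and that at 6 h without these libraries (0.178 and 0.0891) or the 6 h library of replicate 2 (0.162). Pcgf1, Pcgf2, Pcgf3 and Pcgf5 did not pass, with log2 fold changes between -0.22 (Pcgf5, adjusted p = 0.0606) and 0.10 (Pcgf1).

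Among the CBX readers of H3K27 methylation, Cbx2 fell at 6 h, from 29.5 ± 5.16 to 24.98 ± 5.05 CPM (SD, n = 3), with a log2 fold change of -0.25 ± 0.054 (SE, adjusted p = 0.00355, and 0.625 with no replicate block), and Cbx6, Cbx7 and Cbx8 lay between -0.04 and 0.10 without passing. Of the polyhomeotic and SCM genes, which polymerise or bridge PRC1, Scml2 had a log2 fold change of -0.25 ± 0.084 at 6 h (SE, adjusted p = 0.0348, and 0.797 with no replicate block). Among the 9 fits that each leave out 1 library, that call was kept only without the 1 h library of replicate 3, and the highest adjusted p in the others was 0.166. Phc1, Phc2, Phc3 and Scmh1 did not pass at 6 h against 0 h.

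Of the H3K27 demethylases, Kdm6b was lower at 1 h and Kdm6a passed in no comparison. Kdm6b (chr11:69398508-69413675), an inducible enzyme linked to neurogenesis in the SEZ, had 44.6, 49.1 and 51.6 CPM at 0 h, 35.7, 42.5 and 34.9 CPM at 1 h and 49.6, 55.9 and 54.8 CPM at 6 h. In each replicate number it was lowest at 1 h and highest at 6 h, and the 1 h libraries overlapped neither the 0 h nor the 6 h libraries. The log2 fold change was -0.36 ± 0.064 (SE, adjusted p = 0.00735, and 0.857 with no replicate block) at 1 h against 0 h and 0.14 ± 0.063 (SE, adjusted p = 0.106) at 6 h against 0 h. From 1 h to 6 h it rose by 0.50 ± 0.064 (SE, adjusted p = 6.93e-05, and 0.0461 with no replicate block), so this rise was also called with no block. The fall at 1 h was not called without the 0 h library of replicate 3 (adjusted p = 0.0818). Kdm6a, its X-linked paralogue, had 49.5, 53.3 and 53.2 CPM at 0 h, 50.04, 54.4 and 45.6 CPM at 1 h and 52.8, 53.99 and 54.9 CPM at 6 h. Its groups overlapped in every comparison, and its log2 fold changes were -0.06 at 1 h and 0.05 ± 0.060 at 6 h (SE, adjusted p = 0.547).

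Of the KMT2 enzymes, Kmt2b rose at 6 h from 103.9 ± 6.54 to 122.4 ± 7.297 CPM (SD, n = 3), with a log2 fold change of 0.24 ± 0.050 (SE, adjusted p = 0.00261, and 0.16 with no replicate block). Kmt2a, Kmt2c and Kmt2d did not pass against 0 h, with 0.20, -0.15 and 0.19, though the 6 h libraries of Kmt2a lay above all its 0 h libraries. Without the 1 h library of replicate 3 all 3 were called at about the same values, with an adjusted p of 0.000786, 0.00612 and 0.00104. Against 1 h, Kmt2a (0.40), Kmt2b (0.39, adjusted p = 7.16e-05, and 0.0461 with no block) and Kmt2d (0.25) rose. Without the 1 h library of replicate 3 the Kmt2a value was 0.215 (adjusted p = 0.00214) and that of Kmt2d 0.09 (adjusted p = 0.117). In the COMPASS core, which the KMT2 enzymes share, Wdr5 fell by 0.18 ± 0.047 at 6 h (SE, log2, adjusted p = 0.0096), while Ash2l (-0.09) and Rbbp5 (-0.10) did not pass. The Wdr5 call was lost without the 0 h library of replicate 1 (0.0795) or 2 (0.0516) or the 6 h library of replicate 1 (0.0614, adjusted p). Rbbp5 was lower at 1 h against 0 h (-0.27 ± 0.054, SE, adjusted p = 0.0135), in 3 of 3 replicate numbers, but this call was lost without any 1 of the 0 h libraries (0.0803, 0.144 and 0.0729) or the 1 h library of replicate 1 (0.0561). Men1, which tethers KMT2A and KMT2B, rose from 78.9 ± 4.004 to 93.4 ± 2.32 CPM at 6 h, by 0.25 ± 0.053 on the log2 scale (SE, adjusted p = 0.00293), and by 0.15 (adjusted p = 0.0108) once library-specific trends with GC content and length were removed.

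Neither SWI/SNF ATPase passed in any comparison. Smarca4 had 410.7, 416 and 393.5 CPM at 0 h, 421.7, 425.6 and 384.2 CPM at 1 h and 409.9, 452.2 and 406.6 CPM at 6 h. Smarca2 had 82.8, 74.9 and 75.8 CPM at 0 h, 84.04, 75.8 and 73.1 CPM at 1 h and 79.3, 79.7 and 73.3 CPM at 6 h. Their groups overlapped in every comparison, with log2 fold changes at 6 h of 0.06 ± 0.048 for Smarca4 (SE, adjusted p = 0.409) and -0.01 ± 0.050 for Smarca2 (adjusted p = 0.936), which does not show that they did not differ.

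Of the 6 shared core subunits 2 fell at 6 h. Smarcc1 (BAF155) went from 361.3 ± 16.7 to 294.5 ± 6.93 CPM (SD, n = 3), with a log2 fold change of -0.29 ± 0.051 (SE, adjusted p = 0.000677, and 0.115 with no replicate block), and Smarce1 (BAF57) had 148.7, 138.8 and 154 CPM at 0 h, 145.5, 137.5 and 162.1 CPM at 1 h and 120.3, 126 and 128.8 CPM at 6 h, with -0.23 ± 0.051 (SE, adjusted p = 0.00339, and 0.167 with no replicate block). In both, the 6 h libraries lay below all 0 h libraries, and both calls held without any 1 library. Smarcc2 (BAF170), the paralogue of Smarcc1, had all 6 h libraries above those at 0 h and did not pass, at 0.10 ± 0.049 (SE, adjusted p = 0.136). Smarcb1, Smarcd1 and Smarcd3 lay between -0.00 and 0.11.

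All 3 ARID subunits, which set the class of complex, were called, and not in 1 direction. Arid1a rose from 201.8 ± 12.6 to 237.1 ± 17.1 CPM at 6 h, by 0.23 ± 0.060 (SE, log2, adjusted p = 0.00919), a call lost without the 0 h library of replicate 1 (0.0663) or 2 (0.0687). Arid2, of the PBAF form, fell by 0.28 ± 0.070 (adjusted p = 0.00724), a call lost without the 0 h library of replicate 3 (0.0635) or the 6 h library of replicate 1 (0.0631). Arid1b stood just past the threshold, at -0.15 ± 0.057 (adjusted p = 0.0493). Its call was lost without any 1 library other than the 1 h library of replicate 3, and without the 0 h library of replicate 3 the value was -0.09 (adjusted p = 0.311, the highest).

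The subunits that are exchanged between progenitors and neurons were described in each library. Actl6a (BAF53A, chr3:32706298-32726973), the progenitor form, had 90.98, 81.5 and 94.95 CPM at 0 h, 93.7, 85.97 and 104.4 CPM at 1 h and 84.5, 69.1 and 88.1 CPM at 6 h. It was lower at 6 h in 3 of 3 replicate numbers with overlapping groups, at -0.15 ± 0.050 (SE, adjusted p = 0.0324, and 0.594 with no replicate block). This call was kept without 3 of the 9 libraries in turn (the 1 h libraries of replicates 1 and 3 and the 6 h library of replicate 1) and was lost without the others, the highest adjusted p being 0.212 without the 6 h library of replicate 2 (log2 fold change -0.10). Actl6b (BAF53B), the neuronal form, had 5, 17 and 1 counts at 0 h, 6, 17 and 3 at 1 h and 1, 43 and 10 at 6 h. Replicate 2 held most of these counts at each time point, and at this depth no difference could be detected (0.84 ± 0.566, adjusted p = 0.28).

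In the BAF45 family, Phf10 (BAF45A), a progenitor form, fell, while Dpf2, also a progenitor form, and Dpf3, a neuronal form, rose. The progenitor forms thus moved in opposite directions. Phf10 (chr17:14945009-14961273) had 60.8, 56.1 and 58.3 CPM at 0 h, 57.1, 52.9 and 55.8 CPM at 1 h and 50.7, 49.1 and 51.03 CPM at 6 h. The 6 h libraries lay below all earlier ones, and the log2 fold change was -0.21 ± 0.047 (SE, adjusted p = 0.00352, and 0.122 with no replicate block). Dpf2 (BAF45D, chr19:5896516-5913010), which is widely expressed, had 99.4, 101.1 and 93.1 CPM at 0 h, 98.7, 103.3 and 94.2 CPM at 1 h and 115, 124.5 and 111.8 CPM at 6 h. Its 6 h libraries lay above all earlier ones, with 0.26 ± 0.045 (SE, adjusted p = 0.00071, and 0.105 with no replicate block). Dpf3 (BAF45C, chr12:83213745-83487716) had 36.6, 28.6 and 23.4 CPM at 0 h, 34.2, 27.8 and 21.8 CPM at 1 h and 47.99, 37.9 and 34.1 CPM at 6 h. Each replicate number rose by 6 h, but replicate 1 was the highest throughout and the groups overlapped, with 0.45 ± 0.057 (SE, adjusted p = 6.61e-05, and 0.347 with no replicate block). Dpf1 (BAF45B), a neuronal form, had 27.8, 29.8 and 37.5 CPM at 0 h, 28.7, 28.4 and 37.4 CPM at 1 h and 28.5, 26.7 and 40.8 CPM at 6 h. Its log2 fold change was 0.00 ± 0.062 (SE, adjusted p = 0.965). The calls of Phf10, Dpf2 and Dpf3 held without any 1 library.

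The promoters of the 3 BAF45 genes that moved are shown in the same form, since they moved in both directions, with capitals for CCAAT boxes.
Phf10 (chr17:14961211-14961510, minus strand): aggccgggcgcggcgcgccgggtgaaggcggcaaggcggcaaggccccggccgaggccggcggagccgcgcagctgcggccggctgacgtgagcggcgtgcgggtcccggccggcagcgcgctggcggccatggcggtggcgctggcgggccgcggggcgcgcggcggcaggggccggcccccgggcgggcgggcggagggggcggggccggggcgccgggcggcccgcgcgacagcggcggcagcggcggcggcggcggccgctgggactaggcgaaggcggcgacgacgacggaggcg
Dpf2 (chr19:5912822-5913121, minus strand): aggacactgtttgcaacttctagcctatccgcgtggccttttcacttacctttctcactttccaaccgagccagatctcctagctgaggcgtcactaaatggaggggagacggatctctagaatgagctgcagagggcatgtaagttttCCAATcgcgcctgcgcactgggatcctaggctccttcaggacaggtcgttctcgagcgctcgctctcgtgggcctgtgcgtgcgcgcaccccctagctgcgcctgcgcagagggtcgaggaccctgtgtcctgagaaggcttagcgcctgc
Dpf3 (chr12:83487687-83487986, minus strand): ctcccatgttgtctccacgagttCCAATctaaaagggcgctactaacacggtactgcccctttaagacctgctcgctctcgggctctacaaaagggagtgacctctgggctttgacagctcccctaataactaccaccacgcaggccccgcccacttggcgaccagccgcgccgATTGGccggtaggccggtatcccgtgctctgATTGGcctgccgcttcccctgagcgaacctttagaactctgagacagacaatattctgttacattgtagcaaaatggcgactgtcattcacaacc
None held the E2F letters. The Phf10 window, with 87.0% GC and 62 CpG, held no CCAAT box and 5 GC boxes (GGGCGG). The Dpf2 window held 1 CCAAT box and no GC box, and the Dpf3 window 3 CCAAT boxes and 1 GC box. A GC box was found in 35.7% of all promoters and for 36 of the 44 listed genes with a promoter, in the same unlike units as for the E2F letters.

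Ratios within a library put the paralogues side by side on the scale of CPM per kb. Ezh2 to Ezh1 was 19.6, 16.6 and 21.03 at 0 h, 16.6, 16.2 and 19.8 at 1 h and 12.8, 9.598 and 13.3 at 6 h. Thus Ezh2 remained the more abundant in every library, and all 6 h ratios lay below all earlier ones. Rnf2 to Ring1 was 4.75, 3.31 and 3.72 at 0 h and 3.52, 2.15 and 2.84 at 6 h, lower in each replicate number. Smarcc1 to Smarcc2 was 1.14, 1.11 and 1.06 at 0 h and 0.883, 0.806 and 0.832 at 6 h, so that the more abundant paralogue was Smarcc1 in all 0 h libraries and Smarcc2 in all 6 h libraries. This order was the same per kb of the longest transcript at both times (1.18 to 1.275 and 0.8985 to 0.985). The order at 6 h rested on the length divisor, since the plain CPM ratio was 1.25, 1.14 and 1.17 there. At 1 h the ratio per kb of exon was 1.09, 1.075 and 0.99. Kdm6a to Kdm6b was 0.92, 0.9 and 0.855 at 0 h, 1.16, 1.06 and 1.08 at 1 h and 0.882, 0.802 and 0.831 at 6 h, highest at 1 h in each replicate number. Whether it exceeded 1 depended on the length used, since per kb of the longest transcript it lay above 1 in all 9 libraries (1.155 to 1.24 at 0 h, 1.43 to 1.57 at 1 h and 1.08 to 1.19 at 6 h). Smarca4 to Smarca2 lay between 10.9 and 12.5 in all 9 libraries, and between 4.605 and 5.27 per kb of the longest transcript. These ratios are descriptions with no test, and a ratio of totals does not give the composition of assembled complexes.

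**Figure D4:**
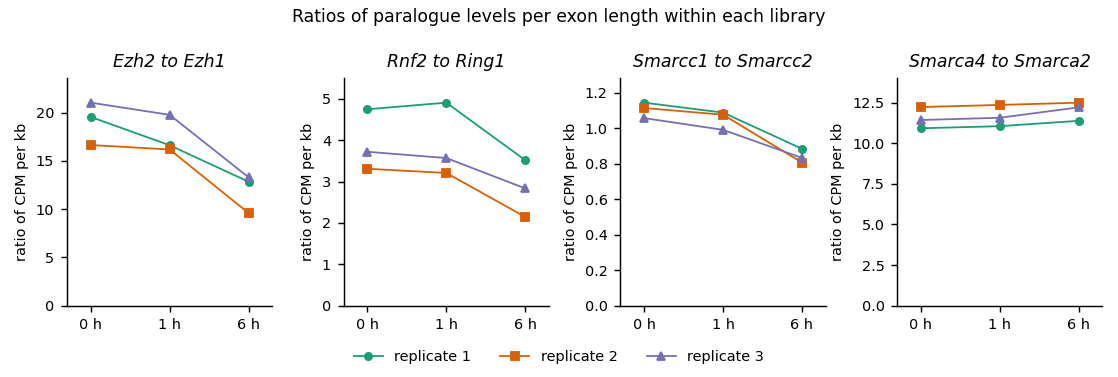
Ratio of CPM per kb of exon between paralogues in each library, joined by replicate number, with axes from 0. Ezh2 to Ezh1, Rnf2 to Ring1 and Smarcc1 to Smarcc2 are lower at 6 h than at 0 h in each of the 3 replicate numbers, and Smarca4 to Smarca2 stays between 10.9 and 12.5.

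At 1 h against 0 h, of the 51 genes none was called higher and 3 lower (Pcgf6, Kdm6b and Rbbp5), against 1.36% and 2.14% of all tested genes. Whether called or not, 36 of the 51 had a log2 fold change below 0, beside 9399 of the 18858 tested genes. With GC and length trends removed, small values turned sign both ways, such as Pcgf3 (-0.05 to 0.04) and Pcgf1 (0.02 to -0.02). The signs were not recounted there. The 1 h library of replicate 3, low in long transcripts as described below, is part of this comparison. With no replicate block, edgeR and DESeq2 called none of the 51. The background was then 0.0424% higher and 0% lower in edgeR, and 0.163% and 0.0669% in DESeq2. In that edgeR fit 2 of the 51 had an unadjusted p under 0.05, beside 735 of the 18858 tested genes. The median log2 fold change of the 51 was -0.06, against 0.00 over all tested genes. Without the 0 h library of replicate 2 only 1 of the 3 was left, and without that of replicate 3 none. Only 1 of the 3 was kept in all 3 fits that leave out 1 replicate number.

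At 6 h against 1 h, 14 genes were higher and 11 lower, against 18% and 17.5% of all tested genes. This comparison shares its 6 h libraries with the one against 0 h. With no block 2 were higher (Kdm6b and Kmt2b) and none lower in edgeR, against 1.48% and 0.663% of all tested genes. In that fit 11 of the 51 had an unadjusted p under 0.05, beside 3335 of the 18858 tested genes. In DESeq2 with no block 4 were higher and none lower, against 2.64% and 1.9% of genes. With library totals in place of TMM scaling the split was 17 higher and 7 lower. The higher genes were Dpf3 (0.53), Kdm6b, Ezh1 (0.47), Jarid2 (0.44), Arid1a (0.41), Kmt2a, Kmt2b, Mtf2, Phf19, Dpf2, Kmt2d, Ring1 (0.21), Rbbp5 (0.18) and Phc1 (0.13). The lower genes were Bmi1 (-0.32), Rnf2 (-0.26), Smarce1 (-0.24), Actl6a (-0.24), Suz12, Arid2, Eed, Smarcc1, Arid1b, Wdr5 and Phf10 (-0.13). In all 3 fits that leave out 1 replicate number, 10 higher and 3 lower calls were kept. Of the 14 higher and 11 lower calls, 10 and 4 held without any 1 library. The others were lost without single libraries, namely Eed and Suz12 without the 1 h or 6 h library of replicate 2 (adjusted p up to 0.085, Suz12 moving from -0.23 to -0.14 without the latter), Ring1, Smarcc1 and Arid2 without those of replicates 1 or 2 (up to 0.18, Arid2 moving from -0.22 to -0.14 without the 1 h library of replicate 1 and to -0.33 without that of replicate 3, where it was called), Rbbp5 without those of replicates 1 or 3 (up to 0.135), and Kmt2d without the 0 h library of replicate 2, the 1 h library of replicate 3 or the 6 h libraries of replicates 1 or 3 (up to 0.201, 0.15 without the 6 h library of replicate 3). Wdr5, Arid1b, Phc1 and Phf10 were kept only in 3, 2, 1 and 1 of the 9 fits that leave out a library, the highest adjusted p then being 0.218. The count of lower genes was 6 without the 1 h or the 6 h library of replicate 1, and 4 and 5 without those of replicate 2. The share over all tested genes in those refits is not given here.

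Many of these genes varied as much by replicate number as by time. For 28 of the 51 the means of the 3 replicate numbers spanned a wider log2 range than the means of the 3 time points, and 28 were lowest in replicate 2. The median range over 50 genes (without Actl6b) was 0.245 between replicate numbers and 0.233 between time points. The widest ranges by replicate number among these 50 were those of Phf19 (1.27 on the log2 scale), Scml2 (0.91), Rnf2 (0.70) and Dpf3 (0.60). The 1 h library of replicate 3 stood apart in the long transcripts, being the lowest of 9 libraries for 6 of the 9 genes with a transcript of at least 8000 bases and for 9 of the 42 others. In that library Kmt2a had 131.4 CPM, against 228.7 and 206 CPM in the other 1 h libraries, and Kmt2c 121.3 against 173.9 and 211 CPM. Without it, 16 of the 51 genes were higher and 17 lower at 6 h against 0 h, and Kmt2c was lower at 6 h than at 1 h, by -0.17 on the log2 scale (adjusted p = 0.00717), where the full fit gave 0.00. Without the 0 h library of replicate 2 the counts at 6 h against 0 h were 7 and 9. The share over all tested genes in these refits is not given here. Their counts therefore show only how far the calls depended on single libraries.

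The genes that fell had transcripts of lower GC content. The median GC content was 44.5% for the 15 lower, 52.9% for the 9 higher and 53.1% for the 27 other genes at 6 h against 0 h, and over all tested genes it was 46.7%, 52.1% and 49.2%. Across 50 genes (without Actl6b), which share the same libraries, GC content and log2 fold change had a Pearson correlation of 0.505, and of 0.25 after library-specific trends with GC content and length were removed. After this removal, in the same fit with the block, 12 genes were higher and 14 lower, against 18.8% and 18.7% of all genes tested. Of the calls above, 8 of 9 and 14 of 15 stood. Phf19 (adjusted p = 0.0682) and Scml2 (0.115) were lost, and Phc3, Kdm6a, Kmt2a and Kmt2d were then higher. Single values moved by at most 0.101 on the log2 scale. Among the genes called in the main fit, this was a move of over 1.5 times for Men1 and Scml2. Some genes not called there, such as Phc3 (0.06 to 0.15) and Ring1 (0.16 to 0.06), also moved by more than that.

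**Figure D5:**
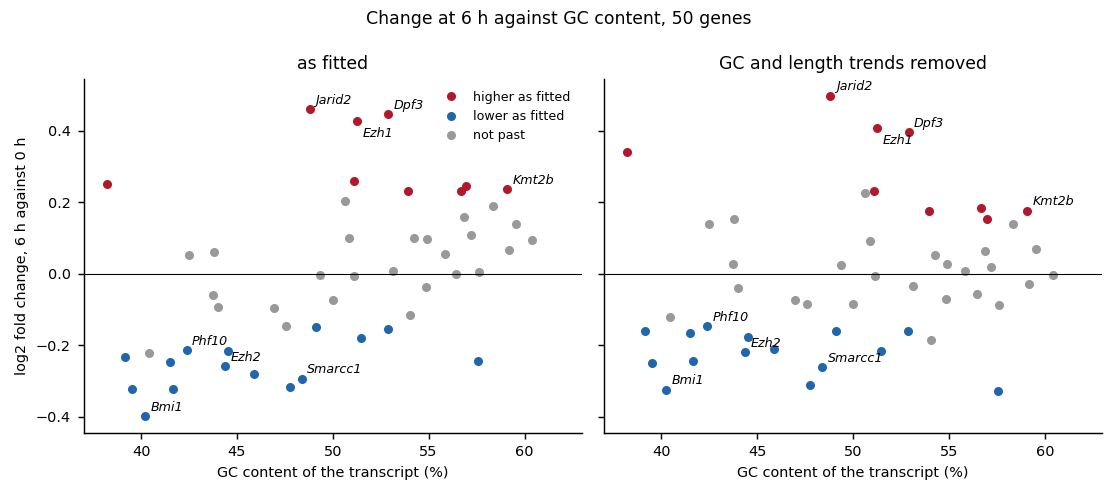
Log2 fold change at 6 h against 0 h over the GC content (%) of the longest transcript of 50 genes, as fitted (left) and with each library's GC and length trends removed (right); colours give the call of the fit on the left. The median GC content is 44.5% for the blue and 52.9% for the red points, and the spread around 0 remains on the right.

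Other subunits of the same complexes were counted by complex. At 6 h against 0 h, 9 of 52 tested were higher and 13 lower, beside 17.4% and 17.5% of all tested genes. With no replicate block 1 of the 52 was called (Bcorl1), and 13 had an unadjusted p under 0.05, beside 3373 of the 18858 tested genes. Of 7 other PRC2 genes 1 was higher and 2 lower at 6 h against 0 h. Phf1, another Polycomb-like protein, rose by 0.47 ± 0.075 (SE, adjusted p = 0.000355, and 0.488 with no replicate block), while the accessory subunit Aebp2 (-0.30) and the histone-binding subunit Rbbp7 (-0.29) fell. Of 14 other PRC1 genes 3 were higher and 4 lower. Bcorl1, a corepressor of the PCGF1 complex, had 17, 19.4 and 15.7 CPM at 0 h, 13.3, 14.8 and 11.8 CPM at 1 h and 30.99, 33.96 and 27.9 CPM at 6 h. In every replicate number it was lowest at 1 h and highest at 6 h, with no overlap between any of the time points. Its log2 fold change was -0.39 ± 0.059 (SE, adjusted p = 0.00249, and 1 with no replicate block) at 1 h and 0.83 ± 0.057 (SE, adjusted p = 3.78e-07, and 0.0204 with no replicate block) at 6 h. Its paralogue Bcor fell by 0.31 (adjusted p = 0.00278), and Sfmbt1 fell by 0.44 (adjusted p = 0.000193).

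Of 6 genes of the PR-DUB complex, which removes the PRC1 mark, none was higher and 3 were lower, namely Foxk1 (-0.28), Asxl2 (-0.19) and Asxl1 (-0.15), with an adjusted p between 0.238 and 0.431 with no block. Of 11 tested further trithorax and COMPASS genes 1 was higher (Setd1b, 0.38 ± 0.083) and 2 lower (Paxip1, -0.30, and Psip1, -0.25). Of 14 other SWI/SNF genes 4 were higher, led by Bicra of the non-canonical BAF complex (0.46 ± 0.080), Bcl7a (0.44) and Smarcd2 (0.34), and 2 were lower (Ss18, -0.25, and Pbrm1, -0.21). At 1 h against 0 h, 4 of these other subunits were lower (Bcorl1, Foxk1, Ncoa6 and Bicral) and none higher, beside 2.14% and 1.36% of all tested genes. With no block edgeR called none of them. In that fit 3 of the 52 had an unadjusted p under 0.05, beside 735 of the 18858 tested genes.

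Classical Polycomb targets were mostly near absence. Of 41 listed Hox and Cdkn2 genes 35 had a mean under 1 CPM, and 8 could be tested, of which Hoxa4 (-0.45) and Hoxa5 (-0.35) were lower at 6 h against 0 h and none was higher (adjusted p with no block 0.882 and 0.928). Replicate 1 held most of both, with 5.97, 0.865 and 1.905 CPM for Hoxa4 and 22.95, 1.89 and 6.42 CPM for Hoxa5 at 0 h. Cdkn2a, which encodes cell cycle inhibitors repressed by Bmi1, had 40.4, 110.1 and 38.7 CPM at 0 h, 41.5, 129.8 and 50.8 CPM at 1 h and 41.3, 118.1 and 38.2 CPM at 6 h. Replicate 2 was higher than the other replicates at every time point, and Cdkn2a was not called at 6 h against 0 h (0.04 ± 0.069, adjusted p = 0.705).

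Some counts can hold reads of an overlapping gene, since the strand setting of the counting is not given in the sources used here. Of the exon bases of Smarcd3, 50.1% lie opposite an exon of another gene (mainly Chpf2), and the shares were 12.7% for Smarcd1, 11.6% for Actl6a (Mrpl47), 9.56% for Phf10, 6.93% for Mtf2, 6.82% for Eed and 4.11% for Kdm6b. Near-identical processed pseudogenes of Bmi1, Rbbp5 and Pcgf1 held counts equal to at most 0.818% of those of the gene itself.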

How the data were processed

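The authors deposited raw counts of reads per Ensembl gene for 9 libraries, made from stranded paired-end mRNA reads aligned with STAR 2.5.3a to mm10 (GRCm38) after FastQC, and they named DESeq2 1.22.1 for their own tests with no covariate. These counts are whole numbers and were used as deposited, and 0 columns were left out. Identifiers were matched to symbols, exon lengths and positions of GENCODE M21 (48144 of 48526 genes).

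Tests used edgeR 4.0.16 (R 4.3.3). Genes were kept with filterByExpr (minimum count 10, minimum total 15), scaled with TMM and fitted with glmQLFit and glmQLFTest, with time point and replicate number as factors and all 9 libraries in 1 fit, at an adjusted p under 0.05. The block follows from the definition of the gene group, which pairs libraries by the letter in their titles. After the time point means were subtracted, 9 pairs of libraries that share a number correlated at 0.733 to 0.800, so the numbers pair the samples. The 18 other pairs correlated at -0.462 to -0.314. Subtracting a mean of 3 libraries pushes these values below 0, so they are no separate evidence of pairing. What libraries with the same number share is not given in the sources used here. CPM values are TMM-scaled counts relative to the library total, and CPM per kb uses the union of exons.

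The replicate block, another tool (DESeq2 1.42.0), RLE scaling, library totals, filters, thresholds, subsets of libraries and trends in GC content and length (4-df splines, with values for 99.6% of genes) were varied. Values in every library are given for called genes that moved by 0.3 or more on the log2 scale at 1 h or 6 h against 0 h, and for the paralogues and exchanged subunits, and for other lists up to 3 called genes per direction with a mean of at least 1 CPM. Phf19, Bcorl1 and Cdkn2a, and Hoxa4 and Hoxa5 at 0 h, were given per library after their values were seen. Smarce1 was also given per library outside this rule. The members are found by symbol alone, but they, the lists and the tests were chosen with earlier results of these data known. Near-identical copies were found with BLAST+ 2.17.0. Promoters come from RefSeq (GRCm38.p6), which held 44 of the 51 genes. Plots used matplotlib 3.10.9, and tables pandas 2.3.3, under Python 3.11.15.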

Additional observations from a re-analysis of the deposited data

How the results depend on the processing

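Below, lower and higher are counts of the 51 genes. With no replicate block, edgeR gave 0 lower at 1 h against 0 h (main value 3), 0 higher and 0 lower at 6 h against 0 h (9 and 15), and 2 higher and 0 lower at 6 h against 1 h (14 and 11). At an unadjusted p under 0.05 that fit held 2, 12 and 11 of the 51 genes in the 3 comparisons. Over the 18858 tested genes it held 735, 3373 and 3335. DESeq2 with no block gave 0 lower at 1 h, 3 higher and 2 lower at 6 h against 0 h, and 4 higher and 0 lower at 6 h against 1 h. At 1 h against 0 h the lower genes were 5 with no filter on low counts and 1 at an adjusted p under 0.01. At 6 h against 1 h the lower genes were 7 with library totals, 7 with only the 6 libraries compared and 7 at an adjusted p under 0.01. Leaving out 1 library, or all 3 libraries of 1 replicate number, gave 0 to 3 lower at 1 h against 0 h, 6 to 16 higher and 6 to 17 lower at 6 h against 0 h, and 11 to 13 higher and 3 to 13 lower at 6 h against 1 h. The share over all tested genes in those refits is not given here, so these counts describe only the dependence of the calls on the libraries. Kmt2c at 6 h against 1 h turned from 0.00 to -0.173 without 1 h replicate 3 and to -0.186 without replicate 3, and over all fits that leave out libraries it lay between -0.186 and 0.111. In the fits with the block, the other tools, scalings, filters and the removal of GC and length trends kept the remaining counts within 1.5 times. Apart from fits without replicate 3 or that library, no gene turned direction while called. Causes were not tested. With 3 libraries per time point and small changes, genes with few counts such as Actl6b could not be compared.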
